A study of Homo sapiens and Canis lupus familiaris with 27 samples.

Results

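Canine CT1258 prostate carcinoma cells exposed to PDA-66 for 24 h were compared to the DMSO control. CT1258 (TihoDProAdcarc1258) is a cell line from 1 canine prostate adenocarcinoma. PDA-66 is an indolylmaleimide, a small molecule that joins a maleimide to an indole ring, and it was dissolved in DMSO. The comparison holds 6 of the 27 samples of the series, chosen by their labels: 3 replicates exposed for 24 h to the compound at 15 µM, and 3 replicates with the vehicle alone (0.15% DMSO), also labelled 24 h. Another 3 samples were taken 12 h after PDA-66 at this dose, and they have no controls of their own time. RNA was poly(A)-selected and sequenced as single reads, and the counts of reads per gene were used. Per the study's methods, the replicates of a group were prepared as separate biological replicates of the cell line, so p-values measure the spread between preparations of 1 line. The question of the comparison was which transcripts change in these cells under a compound reported to depolymerize microtubules.

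Microtubules build the mitotic spindle, which pulls the copied chromosomes apart. Chromosomes that are not attached to it keep the spindle assembly checkpoint on, and this checkpoint holds back the anaphase promoting complex, so that cyclin B and securin are not degraded and the cell stays in mitosis. Many genes for mitosis are transcribed mainly in G2 and M phase, and cells that stop there hold more of their mRNA than cells in G1 phase. In bulk RNA, more cells in a phase and more RNA of a gene per cell cannot be told apart.

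The total count was between 19909616 and 20976950 in the DMSO samples and between 7444226 and 8226593 in the PDA-66 24 h samples, 2.63 times lower on average. The table lists 16028 genes, of which 9886 passed a filter on low counts and were tested. Levels are given as normalised counts, scaled to the same total in each sample (CPM). They are not divided by gene length and are compared between samples only. DMSO replicate 2 stood apart from its group. Its counts differed from those of the other DMSO samples with a chi-square of 52.4 and 52.6 per degree of freedom, compared to 3.88 between these and 3.18 to 5.46 between the PDA-66 24 h samples. Counts of calls that it moved by more than 1.5 times are also given without it. The 11 entries encoded by mitochondrial DNA, looked at after the table was seen, held 2.86% to 3.35% of the counts with DMSO and 5.03% to 6.38% after 24 h of PDA-66. The part of this in the results was not tested.

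Markers of prostate epithelium gave little to check the label with. TMPRSS2, a protease of luminal cells, was at 0 in all 9 samples. The 7 luminal markers listed summed to 4.96 to 6.83 CPM with DMSO and 7.16 to 8.60 CPM after PDA-66. The basal markers KRT14, KRT15 and TP63 were at 0. KRT8, KRT18, CDH1 and VIM were not analysed here. Of 12 genes of mesenchymal cells, 6 had values. They summed to 536 to 690 CPM with DMSO and 638 to 665 CPM after PDA-66, nearly all from CDH2, ZEB1 and ZEB2. ACTA2, COL1A1 and COL3A1 had at most 6 counts in any sample. Leukocyte markers summed to 3.86 to 5.11 CPM and 4.77 to 6.45 CPM, and endothelial markers to 5.11 to 6.63 CPM and 5.24 to 9.02 CPM. Urothelial markers reached at most 0.663 CPM. The neuroendocrine list summed to 147 to 187 CPM with DMSO and 86.5 to 98.1 CPM after PDA-66, nearly all from the glycolysis enzyme ENO2, while NCAM1 and INSM1 were at 0.

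After 24 h, 3340 of the 9886 genes (33.8%) were differentially expressed genes (DEGs) by edgeR's quasi-likelihood test with a Benjamini-Hochberg adjusted p-value under 0.001. Of these, 1644 were higher (16.6% of the genes tested) and 1696 were lower (17.2%). The 3 PDA-66 samples lay outside the range of the 3 DMSO samples for all 3340. These genes were selected by the test on the same samples, so this is not separate support for the calls. Genes that were not called could also lack an overlap, as CDC20, ATF4 and BAX did, and their number is not given here. The changes were mostly moderate, with a median absolute log2 fold change of 0.80 among the DEGs. A change of at least 2-fold was found for 480 higher and 496 lower DEGs, and of at least 4-fold for 61 and 11. The median over all genes tested was -0.01. The share of DEGs grew with the level, from 22% among genes up to 23.04 CPM to 42.5% among genes from 72.18 CPM on. With the DMSO counts thinned to the depth of the PDA-66 samples, 3295 DEGs were found. Without DMSO replicate 2 there were 4629, and without PDA-66 24 h replicate 2 or 3 there were 2163 or 2116.

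**Figure D1:**
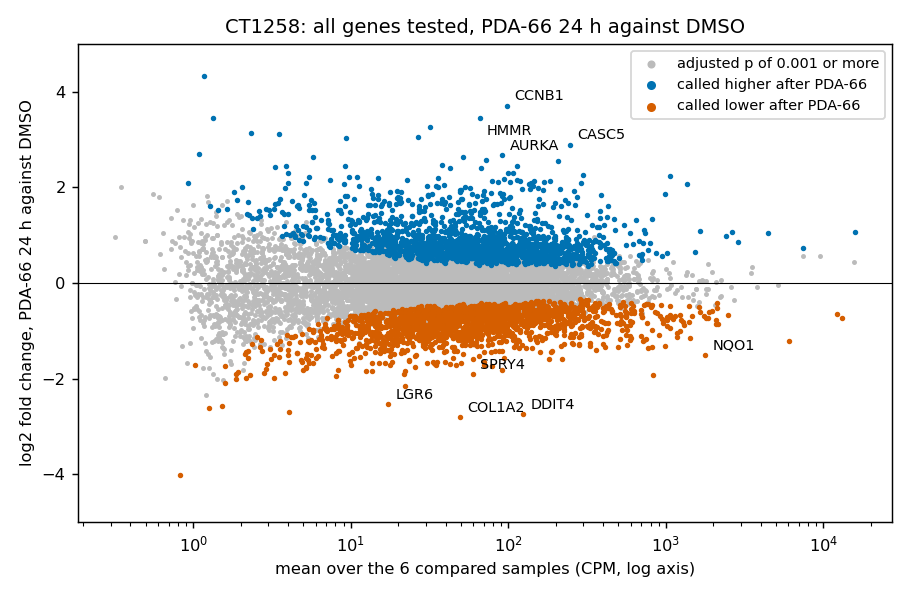
Log2 fold change of PDA-66 24 h against DMSO (vertical axis) plotted against the mean level over the 6 samples in CPM (horizontal log axis), 1 point per gene tested. Coloured points are the 1644 DEGs that were higher and the 1696 that were lower; 2 genes lie outside the axis limits of 5, and CCNB1 and COL1A2 are among the labelled genes at either end.

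The direction of the change went with the base composition of the transcript. No canine transcript sequences were used here, so the human transcript of the same symbol stood in, which was found for 9431 genes (95.4%). Across these genes, the log2 fold change had a Spearman's rho of -0.649 with GC content and 0.268 with length, given as a description since genes are not independent. Of the genes with a GC content of 30.7% to 40.3%, 741 were higher and 26 were lower. Of those with 58.4% to 74.4%, 21 were higher and 786 were lower. Between the samples, the deviation from the mean of all 9 went up with GC content in each DMSO sample (rho 0.581 to 0.641) and down in each PDA-66 sample (rho -0.603 to -0.164). The difference of DMSO replicate 2 from the other DMSO samples had a rho of 0.308 with GC content and -0.63 with length. PDA-66, the lower depth and the pattern with GC content run together over the samples and cannot be told apart. Each list below is therefore also given after a correction for GC content and length, added after the data were seen. The correction also removes any response that follows GC content. It left 2581 DEGs of 9431 genes (27.4%), of which 1245 were higher (13.2%) and 1336 lower (14.2%). Of these, 1583 were DEGs in the same direction without the correction, and 1593 of 3176 DEGs with a corrected value were no longer called.

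**Figure D2:**
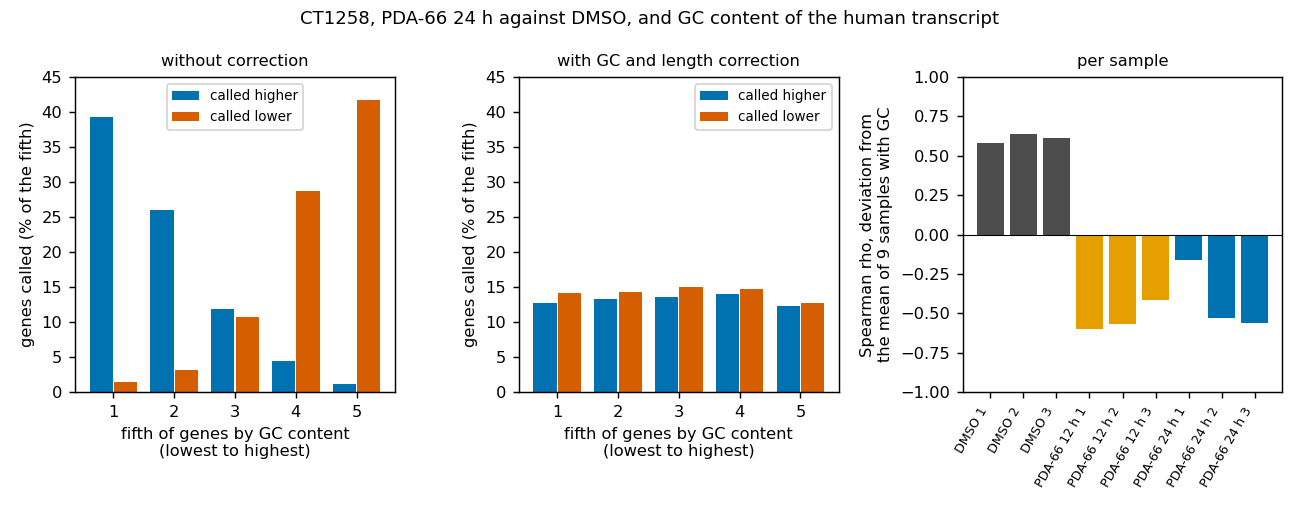
Percentage of genes called higher (blue) or lower (orange) in each of 5 groups of genes by human GC content, without correction (left) and with correction (middle), and Spearman's rho between GC content and each sample's deviation from the mean of 9 samples (right). Without correction, 741 genes of the group of lowest GC content were higher and 786 of the group of highest GC content were lower, while the corrected counts lie between 232 and 282.

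Genes for mitosis were higher after PDA-66. Of 129 tested genes on 7 lists of mitosis genes, each counted 1 time, 102 rose and 4 fell, with a median log2 fold change of 1.31 compared to -0.01 over all genes tested. The counts were 98 and 4 with the correction (median 1.14), and 107 and 5 without DMSO replicate 2.

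The share of DEGs was 82.2% over the mitosis genes, compared to 33.8% over all genes tested. On the lists described further on, it was within 11 percentage points of the latter for G1/S genes (36.4%), tubulins and EGF receptor ligands (43.8% each), ribosome biogenesis, autophagy (37.5%), oxidative phosphorylation (42.9%), TGF beta (41.7%), Wnt, integrins, interferon-stimulated genes (25%) and the aryl hydrocarbon receptor list (25%), and nothing about these lists as groups is read from their counts. It was 47.6% for the endoplasmic reticulum list, and 50% each for replication, the BCL2 family, FOXO targets and collagens. These shares are not far above the 42.5% among genes from 72.18 CPM on. Immediate early genes had 56.2%.

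**Figure D3:**
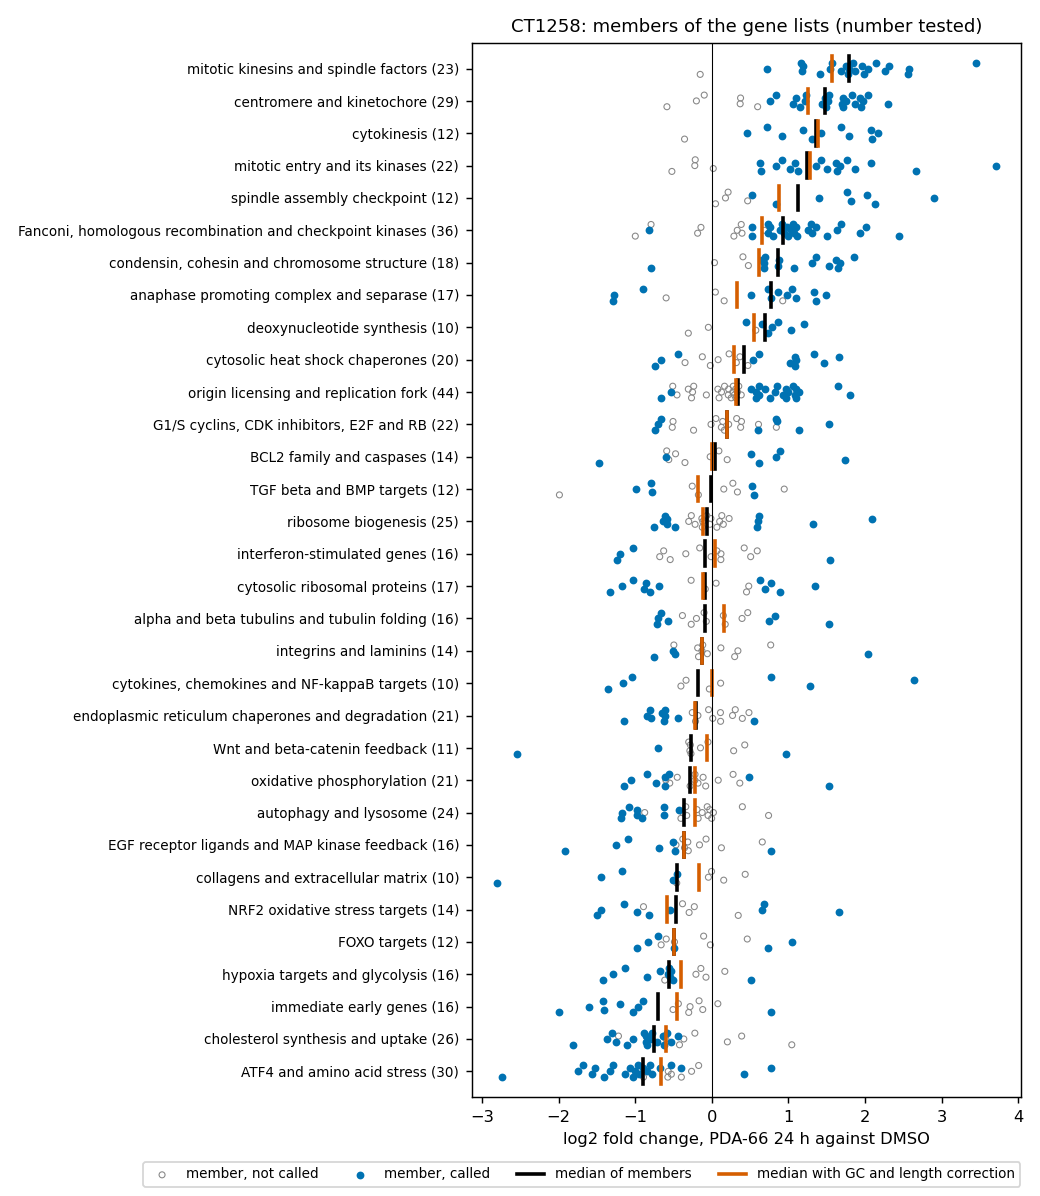
Log2 fold change of PDA-66 24 h against DMSO for tested members of the gene lists reported here. Of these lists, those with at least 10 tested members are shown, 1 point per gene, with filled points for DEGs. Black bars are the median of the members and orange bars the median after correction for GC content and length. The mitosis lists lie towards the top, up to a median of 1.80, and the ATF4 list at the bottom with -0.89. The Fanconi list (0.93) lies above the mitosis lists for chromosome structure (0.87) and the anaphase promoting complex (0.77).

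Among the genes for entry into mitosis, 18 of 22 rose and 0 fell. CCNB1, which encodes cyclin B1, the partner of CDK1, was at 13.2, 15.4 and 13.2 CPM in the DMSO samples and at 170, 183 and 193 CPM after 24 h. It rose 13.1-fold, a log2 fold change of 3.71 ± 0.10 (SE, adjusted p = 2.87e-11, edgeR), the largest among the DEGs whose mean over the 6 samples reached 10 CPM. All 3 PDA-66 samples lay far above the DMSO samples. AURKA, the kinase of spindle poles, was at 24.2, 25.6 and 24.8 CPM with DMSO and at 154, 160 and 161 CPM after PDA-66, with a log2 fold change of 2.67 ± 0.08 (adjusted p = 4.86e-11, edgeR). CDK1 itself was at 37.4, 45.5 and 33.3 CPM with DMSO and 111, 121 and 128 CPM after PDA-66 (log2 fold change 1.63). Neither gene showed an overlap between the groups. CCNA2, cyclin A2, rose by 2.08 on the log2 scale, GTSE1 by 1.86 and PLK1, a kinase needed from mitotic entry to cytokinesis, by 1.13. PKMYT1 and WEE1, the kinases that inhibit CDK1, were not DEGs, with log2 fold changes of -0.22 and 0.02. With the correction they turned to 0.46, which was called, and to -0.12. With the correction, CCNB1 was at 3.40, AURKA at 2.48, CDK1 at 1.10 and PLK1 at 1.54. The list then had 17 higher and 0 lower members, with a median of 1.28 compared to 1.24 without it.

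Of 12 genes of the spindle assembly checkpoint, 8 rose and 0 fell (median 1.12). CASC5, the kinetochore scaffold on which BUB proteins assemble, was at 63.1, 49.0 and 62.5 CPM with DMSO and at 416, 430 and 455 CPM after PDA-66, a log2 fold change of 2.90 ± 0.12 (adjusted p = 7.8e-10, edgeR). BUB1B, which encodes the checkpoint kinase BUBR1, was at 64.9, 64.6 and 74.1 CPM and rose to 287, 303 and 305 CPM, a log2 fold change of 2.13 ± 0.09 (adjusted p = 7.8e-10, edgeR). In both genes the lowest PDA-66 sample was several times the highest DMSO sample. BUB1 rose by 2.03 and KNTC1, part of the complex that brings dynein to kinetochores, by 1.82. CDC20, the activator of the anaphase promoting complex that the checkpoint inhibits, was at 344, 464 and 340 CPM with DMSO and 573, 509 and 504 CPM after PDA-66. The groups did not overlap, but the log2 fold change of 0.47 was not called (adjusted p = 0.00253, edgeR). With the correction CDC20 was called, with 0.91 (adjusted p = 2.37e-08, edgeR), and the list had 9 higher and 0 lower members (median 0.87).

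The anaphase promoting complex and its substrates moved in both directions, with 10 of 17 genes higher and 3 lower. PTTG1, which encodes securin, a substrate of the complex, was at 23.3, 36.1 and 24.1 CPM with DMSO and at 81.5, 77.8 and 76.0 CPM after PDA-66 (log2 fold change 1.49). ESPL1, the separase that securin holds inactive, rose by 1.33, FBXO5, an inhibitor of the complex, by 1.36 and UBE2C, its ubiquitin-conjugating enzyme, by 1.09. The genes that fell were FZR1, the activator used at mitotic exit and in G1 phase (-1.30), and the subunits ANAPC11 (-1.28) and ANAPC13 (-0.90). FZR1 was at 77.8, 86.0 and 79.8 CPM with DMSO and 39.3, 29.4 and 30.4 CPM after PDA-66. ANAPC13 was not called without PDA-66 24 h replicate 2 or 3. The median of this list was 0.77, and 0.33 with the correction, with 8 higher and 4 lower.

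Of 23 mitotic kinesins and spindle factors, 22 rose and 0 fell, with a median of 1.80. NUMA1, which holds microtubules at the spindle poles, was the exception with -0.15, and had 0.29 with the correction. HMMR, a spindle-associated protein, was at 12.2, 8.16 and 12.9 CPM with DMSO and 102, 126 and 134 CPM after PDA-66 (log2 fold change 3.44 ± 0.15, adjusted p = 1.18e-09, edgeR). CKAP2L rose by 2.58, ASPM_CANFA, a protein of spindle poles, by 2.56 and the kinesin KIF14 by 2.31. Of 29 genes of centromere and kinetochore, 23 rose and 0 fell (median 1.48). SGOL1 and SGOL2, the shugoshins that protect cohesion at centromeres, rose by 2.03 and 1.97. HJURP, the chaperone of the centromeric histone, rose by 1.95. SPC24, a subunit of the NDC80 complex, was at -0.10 (0.16 with the correction), while NDC80, NUF2 and SPC25 of the same complex were DEGs at 1.87, 1.94 and 1.82. With the correction, all 23 kinesin and spindle genes (median 1.57) and 23 kinetochore genes (median 1.25) were called higher.

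For cytokinesis, 11 of 12 genes rose. CEP55, needed for the final cut between daughter cells, rose by 2.17, the RhoA exchange factor ECT2 by 2.09, ANLN, which encodes anillin, by 2.07 and KIF23 by 1.80. Of 18 genes of condensin, cohesin and chromosome structure, 14 rose and 1 fell (median 0.87). MKI67, which encodes the proliferation marker Ki-67, was at 492, 238 and 549 CPM with DMSO and 1581, 1518 and 1545 CPM after PDA-66 (log2 fold change 1.86 ± 0.21, adjusted p = 6.6e-06, edgeR). DMSO replicate 2 was the low sample here. The condensin subunits NCAPG, SMC2 and SMC4 rose by 1.67, 1.65 and 1.62. NCAPH2, a subunit of condensin II, fell by 0.80 and was not called with the correction (-0.31). The corrected counts were 10 higher and 0 lower for cytokinesis and 12 higher and 0 lower for chromosome structure.

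**Figure D4:**
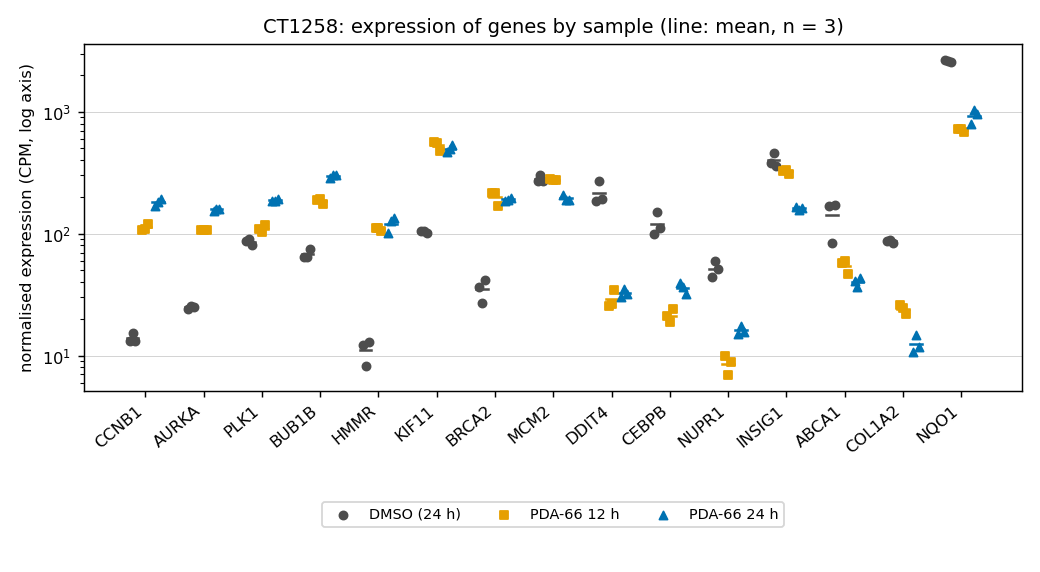
Normalised expression in CPM (log axis) of 15 genes in each of the 9 CT1258 samples, with the mean of each group of 3 as a line. CCNB1 lies at 13.2 to 15.4 CPM with DMSO and at 170 to 193 CPM after 24 h of PDA-66, and COL1A2 at 83.3 to 89.3 and 10.7 to 14.8 CPM.

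Tubulins are the subunits of microtubules. Of 16 tested genes for tubulins, their folding and their binding proteins, 3 rose and 4 fell. TUBB4A, a beta tubulin, was at 30.3, 33.7 and 29.2 CPM with DMSO and 101, 84.2 and 84.4 CPM after PDA-66 (log2 fold change 1.53). MAPRE1, the plus-end protein EB1, rose by 0.82 and STMN1, which binds free tubulin, by 0.75. TUBA1B, an alpha tubulin, was at 1972, 2681 and 2033 CPM with DMSO and 1523, 1238 and 1294 CPM after PDA-66, a log2 fold change of -0.72 (adjusted p = 0.00014, edgeR). The groups did not overlap, but the call was lost without PDA-66 24 h replicate 2 or 3. The others that fell were TUBB2B (-0.67), the folding factor TBCB (-0.71) and TTC5, which takes part in the feedback on tubulin mRNA (-0.57). TUBB was not a DEG (-0.27). TBCB was not called with the correction (-0.13), TTC5 without any 1 of the PDA-66 24 h samples, and STMN1 in 5 of the 6 fits without 1 sample, all but the one without DMSO replicate 2. The median of the list was -0.09 and turned to 0.16 with the correction, with 6 higher and 3 lower. Without PDA-66 24 h replicate 2 or 3, 4 members were called. Tubulin genes are closely similar, and no source used here says where reads matching more than 1 of them were counted.

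Genes for DNA replication rose in part. Of 44 genes for origin licensing and the replication fork, 20 rose and 2 fell, with a median of 0.34. DBF4, which activates the kinase that fires origins, was at 45.2, 46.8 and 44.5 CPM with DMSO and 150, 160 and 166 CPM after PDA-66 (log2 fold change 1.80 ± 0.08, adjusted p = 1.17e-09, edgeR). The nuclease DNA2 rose by 1.65, the clamp loader subunit RFC3 by 1.14 and CLSPN, which encodes claspin, by 1.10. The 2 that fell were subunits of the replicative helicase. MCM2 was at 269, 304 and 272 CPM with DMSO and 209, 188 and 189 CPM after PDA-66 (-0.53), and MCM5 had -0.66. Neither was called with the correction (-0.17 and -0.34), and MCM5 was not called without PDA-66 24 h replicate 2 or 3. PCNA, the sliding clamp, was at 118, 146 and 120 CPM and 168, 148 and 148 CPM, and was not a DEG (0.27). For deoxynucleotide synthesis, 7 of 10 genes rose, led by the kinase DCK with 1.21 and DUT with 1.03. The count was 3 or 4 without DMSO replicate 3 or any 1 of the PDA-66 24 h samples. The corrected counts were 20 higher and 0 lower for replication (median 0.31) and 5 and 0 for deoxynucleotide synthesis (0.55, compared to 0.69).

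The list for the Fanconi pathway, homologous recombination and checkpoint kinases, which repair breaks and crosslinks, had 26 of 36 genes higher and 1 lower (median 0.93). BRCA2, which acts in homologous recombination, was at 36.6, 26.9 and 42.0 CPM with DMSO and 187, 190 and 197 CPM after PDA-66, a log2 fold change of 2.44 ± 0.14 (adjusted p = 1.6e-08, edgeR). The lowest PDA-66 sample was more than 4 times the highest DMSO sample. FANCM, which anchors the Fanconi core complex, rose by 2.01, FANCD2, the protein this complex ubiquitinates, by 1.93 and FANCB by 1.68. BRCA1 rose by 1.25 on the log2 scale. FANCE, a core complex subunit, was the member that fell (-0.82). With the correction, 21 members were higher and 2 lower (median 0.66), and BRCA2 had 1.90. FANCB was then not called (1.12), nor was it without PDA-66 24 h replicate 2 or 3.

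Of 22 genes for G1/S cyclins, CDK inhibitors, E2F and RB, 5 rose and 3 fell. CCND1, which encodes cyclin D1, was at 291, 308 and 299 CPM with DMSO and 206, 172 and 171 CPM after PDA-66 (log2 fold change -0.71, adjusted p = 9.89e-06, edgeR). CCND2 fell by 0.66 and CDK6, the kinase of the D cyclins, by 0.75. CDKN3, a phosphatase that acts on CDKs, rose by 1.53 and the E2F repressors E2F8 and E2F7 by 1.14 and 0.83, as did E2F5 (0.85). CCNE1, cyclin E1, was not a DEG (-0.01, and 0.19 with the correction). CDK6 was called in 1 of the 6 fits that each dropped a sample, the one without DMSO replicate 2. The median was 0.19 with and without the correction, which gave 8 higher and 3 lower members. Without DMSO replicate 2, 15 members were called in place of 8.

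In the BCL2 family and caspases, 5 of 14 rose and 2 fell. BIRC3_CANFA, an inhibitor of apoptosis, rose by 1.74 and BCL2 by 0.89, and BID (0.61) and the caspase CASP6 (0.51) were higher too. BMF, which binds and inhibits BCL2 proteins, fell by 1.47 and CASP9 by 0.60. MCL1 was at 181, 176 and 180 CPM with DMSO and 164, 183 and 183 CPM after PDA-66, so that the groups overlapped (-0.02). BAX was not a DEG (-0.59, adjusted p = 0.00199, edgeR), and had 0.05 with the correction. Without PDA-66 24 h replicate 1, 4 members were called, and BCL2 was not. CASP9 was not called without any 1 of the PDA-66 24 h samples. With the correction, 3 were higher and 4 lower (median -0.00, compared to 0.03), and BCL2 (0.64) and CASP6 (0.28) were not called.

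The ATF4 list, genes that cells switch on when amino acids are short, had the lowest median. Of 30 genes, 21 fell and 2 rose, with a median of -0.89. DDIT4, an inhibitor of mTORC1, was at 185, 272 and 191 CPM with DMSO and 30.1, 35.0 and 32.0 CPM after PDA-66, 6.67-fold lower (log2 fold change -2.74 ± 0.16, adjusted p = 1.21e-08, edgeR). CEBPB, a transcription factor of the stress response, was at 100, 150 and 112 CPM with DMSO and 39.5, 36.2 and 32.3 CPM after PDA-66 (-1.74). In each of these genes DMSO replicate 2 was the highest sample and the groups did not overlap. NUPR1 fell by 1.68 and CHAC1, which degrades glutathione, by 1.56. DDIT3, which encodes CHOP, fell by 1.00, a call that was lost without PDA-66 24 h replicate 1. The members that rose were ATF3 (0.77) and the tRNA exporter XPOT (0.42, and -0.0075 with the correction). XPOT was called in 2 of the 6 fits without 1 sample, those without DMSO replicate 2 and PDA-66 24 h replicate 1. ATF4 mRNA itself was at 1626, 2244 and 1661 CPM with DMSO and 1362, 1450 and 1385 CPM after PDA-66. It was not a DEG (-0.40, adjusted p = 0.00837, edgeR). With the correction, 21 of 27 members were lower and 1 higher (median -0.67). CEBPB then had -1.06, NUPR1 -1.66 and CHAC1 -0.95, while DDIT4 had no human value. Without DMSO replicate 2, 26 were lower and 2 higher.

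Of 21 chaperones and degradation factors of the endoplasmic reticulum, 9 fell and 1 rose. CALR, the calcium-binding chaperone calreticulin, was at 1894, 2112 and 1861 CPM with DMSO and 845, 889 and 915 CPM after PDA-66 (log2 fold change -1.15 ± 0.08, adjusted p = 9.3e-08, edgeR). ERN1, the stress sensor IRE1, fell by 0.85, and CRELD2 and SDF2L1 by 0.80 each. DNAJC3 rose by 0.55. With the correction, CRELD2 (-0.21), SDF2L1 (-0.05) and DNAJC3 (0.09) were not called, and 6 members were lower and 0 higher (median -0.21, as without it). ERN1 was not called without any 1 of the PDA-66 24 h samples, and DNAJC3 without DMSO replicate 1 or 3 or PDA-66 24 h replicate 2 or 3. HSPA5, the chaperone BiP, was at 2152, 2501 and 2192 CPM with DMSO and 1174, 1697 and 1616 CPM after PDA-66. Its log2 fold change of -0.61 (adjusted p = 0.000958, edgeR) was called in 1 of the 6 fits that each dropped a sample, the one without DMSO replicate 2. Without PDA-66 24 h replicate 2 or 3, 6 members were called.

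Cytosolic heat shock chaperones went the other way, with 9 of 20 higher and 3 lower (median 0.42). HSP90AA1, the inducible HSP90, was at 434, 522 and 429 CPM with DMSO and 1172, 1143 and 1189 CPM after PDA-66 (log2 fold change 1.34 ± 0.09, adjusted p = 6.21e-08, edgeR). HSPA8, the constitutive HSP70, rose by 1.09 from 1025 to 1091 CPM to 2137 to 2343 CPM. CRYAB, a small heat shock protein, rose by 1.66, HSPH1 by 1.46 and the chaperonin subunit CCT2 by 1.09. HSF1, the transcription factor of the heat shock response, fell by 0.74 and DNAJB1 by 0.44. HSPB1 fell by 0.66, which turned to 0.10 with the correction. HSF1 (-0.13) and DNAJB1 (-0.22) were not called with it, and 7 members were higher and 1 lower (median 0.28). HSPB1 and DNAJB1 were not called without any 1 of the PDA-66 24 h samples, and DNAJB1 not without DMSO replicate 1.

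Genes for cholesterol synthesis and uptake were lower, with 18 of 26 falling and 0 rising (median -0.75). INSIG1, which retains the sterol sensor in the endoplasmic reticulum, was at 380, 460 and 359 CPM with DMSO and 165, 157 and 164 CPM after PDA-66 (log2 fold change -1.30, adjusted p = 1.09e-07, edgeR). SREBF2, the transcription factor of the pathway, fell by 1.25. The groups did not overlap in these genes. ABCA1, which exports cholesterol and is switched on by sterols rather than off, fell by 1.81 from 168, 83.3 and 172 CPM to 41.2, 36.3 and 42.9 CPM. With the correction, 18 members were lower and 1 higher (median -0.60).

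Of 16 hypoxia targets and glycolysis genes, 10 fell and 1 rose (median -0.56). PFKL, a phosphofructokinase, was at 271, 305 and 249 CPM with DMSO and 99.5, 110 and 98.9 CPM after PDA-66 (log2 fold change -1.42). CA9, a carbonic anhydrase, fell by 1.28, VEGFA_CANFA, a growth factor for blood vessels, by 1.13 and ENO2 by 0.85. EGLN1, the oxygen sensor that marks HIF for degradation, rose by 0.52, which was not called without PDA-66 24 h replicate 2 or 3. Without either of these, 7 members were called. The corrected counts were 9 lower and 1 higher (median -0.40). NRF2 targets were mixed, with 6 of 14 lower and 3 higher (median -0.46). NQO1, a quinone reductase, was at 2669, 2626 and 2573 CPM with DMSO and 790, 1030 and 956 CPM after PDA-66 (-1.50 ± 0.10, adjusted p = 4.16e-08, edgeR). PGD, which makes NADPH, fell by 1.15 and TKT by 0.98. AKR1B1, an aldose reductase, rose by 1.66, PRDX1 by 0.68 and GCLM, a subunit of the glutathione-making ligase, by 0.65. With the correction, GCLM was not called (0.10), and 8 members were lower and 2 higher (median -0.58). GCLM was not called without DMSO replicate 1 or PDA-66 24 h replicate 2 or 3 either.

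Of 24 autophagy and lysosome genes, 9 fell and 0 rose (median -0.36). SQSTM1, the autophagy receptor p62, was at 967, 1077 and 977 CPM with DMSO and 441, 462 and 425 CPM after PDA-66 (log2 fold change -1.19). WIPI1 fell by 1.18 and the proton pump subunit ATP6V0D1 by 0.98. With the correction, 11 were lower and 2 higher (median -0.23). Nuclear genes for oxidative phosphorylation had 7 of 21 lower and 2 higher (median -0.28), with NDUFS7 at -1.15, NDUFV1 at -1.06, NDUFA2 at -0.85, SDHA at -0.73, UQCRC2 at 0.49 and NDUFB5 at 1.52. NDUFS7 (-0.36) and UQCRC2 (0.23) were not called with the correction, which gave 8 lower and 2 higher members. NDUFA2 was not called without any 1 of the PDA-66 24 h samples, nor was UQCRC2, which was also lost without DMSO replicate 1. There were 14 called members without DMSO replicate 2 and 5 without PDA-66 24 h replicate 2 or 3.

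Immediate early genes, which growth factor signals switch on within minutes, had 8 of 16 members lower and 1 higher (median -0.70). EGR1 was at 267, 237 and 248 CPM with DMSO and 134, 112 and 122 CPM after PDA-66 (log2 fold change -1.03 ± 0.10, adjusted p = 1.68e-06, edgeR), and the groups did not overlap. EGR2 fell by 2.00, IER5 by 1.60, IER2 by 1.42 and JUNB by 1.41. ATF3 was the member that rose. MYC was not a DEG (-0.30, adjusted p = 0.0274, edgeR). Of 16 EGF receptor ligands and feedback inhibitors of MAP kinases, 6 fell and 1 rose, and 11 were called without DMSO replicate 2. SPRY4, which dampens receptor tyrosine kinase signals, was at 99.7, 71.4 and 112 CPM with DMSO and 27.7, 26.0 and 21.4 CPM after PDA-66 (-1.91). The phosphatases DUSP4 and DUSP5 fell by 1.26 and 0.69, and PHLDA1 by 1.09. NRG1, a ligand of ERBB receptors, rose by 0.77, and this was not called with the correction (0.39). The corrected counts were 7 lower and 2 higher for the immediate early genes (median -0.45) and 8 lower and 0 higher for the second list (median -0.36, compared to -0.37).

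The Wnt list had a share of DEGs below that of all genes tested (27.3% compared to 33.8%), with 1 of 11 genes higher and 2 lower. LGR6, a receptor for R-spondins, was at 30.5, 30.8 and 27.5 CPM with DMSO and 6.26, 4.46 and 4.48 CPM after PDA-66, 5.81-fold lower (log2 fold change -2.54 ± 0.14, adjusted p = 1.19e-08, edgeR). Its relative LGR4 rose by 0.97, and the other gene that fell was CCND1. The median of the list was -0.27, and -0.06 with the correction, with 2 higher and 2 lower. Among 12 targets and members of TGF beta and BMP signaling, 3 fell (CYR61 with -0.98, LTBP2 with -0.80 and SMAD3 with -0.78) and 2 rose (TGFBR1 with 0.56 and SKIL with 0.53). SKIL had -0.13 and TGFBR1 0.07 with the correction, which left 3 lower and 0 higher members (median -0.18, compared to -0.01). Without any 1 of the PDA-66 24 h samples, 3 members were called and SKIL and TGFBR1 were not, and TGFBR1 was also lost without DMSO replicate 3. Of 12 FOXO targets, 4 fell and 2 rose, with INSR at -0.98, FOXO1 at -0.84, KLF6 at -0.70, CITED2 at -0.50, SOD2 at 0.73 and GADD45B at 1.05. There were 10 called members without DMSO replicate 2 and 3 without PDA-66 24 h replicate 3. FOXO1 and GADD45B were not called without PDA-66 24 h replicate 1 or 3, and CITED2 not without replicate 2 or 3 or DMSO replicate 1 or 3. With the correction, 6 were lower and 1 higher (median -0.49, as without it), and SOD2 was not called (0.35). TXNIP was not a DEG (0.46). Of the 4 tested genes of the aryl hydrocarbon receptor list, NQO1 was the DEG, also with the correction.

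Of 10 genes for collagens and extracellular matrix, 5 fell and 0 rose. COL1A2, the alpha 2 chain of type I collagen, was at 87.2, 89.3 and 83.3 CPM with DMSO and 10.7, 14.8 and 11.7 CPM after PDA-66. It was 6.99-fold lower, a log2 fold change of -2.81 ± 0.12 (adjusted p = 1.17e-09, edgeR), the largest decrease among the DEGs whose mean reached 10 CPM. With the correction it had -2.56. SPARC, a collagen-binding protein, fell by 1.45, COL7A1 by 1.17 and COL4A1 by 0.50, as did TIMP2 (-0.46). The list had 3 called members without DMSO replicate 3 or PDA-66 24 h replicate 2 or 3, and 2 with the correction (median -0.16, compared to -0.46). COL7A1 (-0.59), COL4A1 (-0.23) and TIMP2 (-0.25) were then not called, and COL4A1 was lost in 4 of the 6 fits without 1 sample, those without DMSO replicate 3 or any 1 of the PDA-66 24 h samples. COL1A1, COL3A1 and ACTA2 had at most 6 counts in any sample. Of 14 integrin and laminin genes, 1 rose and 3 fell (28.6% called), and 1 was higher and 2 were lower with the correction (median -0.13, compared to -0.12). LAMB2, ITGA3 and ITGA5 fell by 0.75, 0.50 and 0.49. ITGA3 and ITGA5 were not called without PDA-66 24 h replicate 2 or 3, nor with the correction (-0.04 and -0.11), and 2 members remained called in the first case.

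Cytokines and NF-kappaB targets had 3 of 10 genes higher and 3 lower. IL1B_CANFA, an inflammatory cytokine, rose from 1.19, 1.69 and 1.89 CPM to 9.2, 9.18 and 11.4 CPM (log2 fold change 2.63 ± 0.20, adjusted p = 1.19e-07, edgeR). IL8_CANFA rose by 1.28, which was not called without PDA-66 24 h replicate 1 or 3, and TNFAIP3, an inhibitor of NF-kappaB, by 0.78, which was not called without replicate 1 or 2. RELB and NFKB2, which form the noncanonical NF-kappaB dimer, fell by 1.36 and 1.17 and NFKBIA by 1.04. With the correction, 2 of 9 members were higher and 3 lower (median -0.00, compared to -0.18). Of 16 interferon-stimulated genes, IFIT3 rose by 1.54, and IRF9, ISG20 and IRF1 fell by 1.24, 1.20 and 1.03. There were 7 called members without DMSO replicate 2 and 2 without PDA-66 24 h replicate 1. IFIT3 was lost without the latter, and ISG20 without DMSO replicate 1 or any 1 of the PDA-66 24 h samples. With the correction, 1 was higher and 2 lower (median 0.04, compared to -0.08), and IFIT3 (1.33) and ISG20 (-0.94) were not called.

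For ribosome biogenesis, 5 of 25 genes rose and 6 fell (44% called, compared to 33.8% of all genes tested), and 4 to 6 were called when 1 of the PDA-66 24 h samples was left out. Of 17 tested ribosomal proteins, 5 rose and 7 fell, from RPL28 with -1.32 to RPSA with 1.34. The corrected counts were 6 higher and 5 lower for ribosome biogenesis and 4 and 6 for the ribosomal proteins. These genes may have near-identical copies, which was not checked in the canine genome, so their counts are taken as uncertain. The same holds for RPL31 (3.06), ETF1 (2.64) and NPM1 (2.10). Of 5 tested histone genes, H3F3B (2.00) and H2AFX (0.83) rose. HIST1H1C fell (-1.01), which was not called with the correction (-0.53) or without PDA-66 24 h replicate 2 or 3. H3F3B was at 0.65 to 0.94 CPM with DMSO and 2.49 to 4.20 CPM after PDA-66, so its change rests on low counts. With the correction, 2 histone genes were higher and 0 lower.

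The other genes with the largest changes lie on few of the lists. PARPBP, which restrains homologous recombination, was at 14.0, 9.9 and 11 CPM with DMSO and 56.7, 66.5 and 70.4 CPM after PDA-66 (log2 fold change 2.47). The entry Q0QEY4_CANFA was at 4.61, 8.11 and 5.22 CPM and rose to 57.6, 59.1 and 56.2 CPM (3.27). SOX4, a developmental transcription factor, was at 33.6, 42.8 and 31.5 CPM with DMSO and 8.84, 7.08 and 8.27 CPM after PDA-66 (-2.15). PYCR1, the last enzyme of proline synthesis, fell by 1.90, Q9TTK3_CANFA by 1.93, C1QTNF6 and PLEKHH3 by 1.85 each and DPP7 by 1.84. The PDA-66 and DMSO samples did not overlap in any of them, as the rule for naming them required. KLK2, a kallikrein protease, was chosen after its values were seen. It had 218, 67 and 72 counts in the DMSO samples and 0 in all 6 PDA-66 samples. Against a floor of 3 counts over the 3 PDA-66 24 h samples (0.129 CPM), it was at least 45.2-fold lower, and at least 26.3-fold without DMSO replicate 1, the highest sample. A count of exactly 0 in every PDA-66 sample may have a technical cause, and the cause was not tested.

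The 24 h samples were also compared with the 12 h samples directly, since both times share their DMSO controls. Of 9886 genes, 211 (2.13%) were called by the same edgeR test, 84 higher (0.85%) and 127 lower (1.28%) at 24 h. An unadjusted p-value under 0.05 was found for 3214. Without PDA-66 12 h replicate 1 the count was 20, and without DMSO replicate 2 it was 1352. Of the 129 mitosis genes, 16 were higher at 24 h and 1 was lower. CCNB1 was at 107, 110 and 120 CPM at 12 h and PLK1 at 109, 103 and 118 CPM, compared to 186, 185 and 191 CPM for PLK1 at 24 h. Their log2 fold changes between the times were 0.70 and 0.77 (adjusted p = 0.000197 and 7.74e-05, edgeR). TOP2A, the topoisomerase that untangles chromosomes, was the lower member (-0.55). CCNE1 was 1.01 lower on the log2 scale at 24 h than at 12 h. Of the ATF4 list, 7 members were higher at 24 h than at 12 h and 0 lower, and of the endoplasmic reticulum list 6 and 0. The changes between the times had a Spearman's rho of 0.254 with GC content and -0.155 with length. Median GC content was 53.2% on the ATF4 list, 46.1% on the endoplasmic reticulum list and 47.7% over all genes tested. Values between the times are given without the correction unless stated. With it, CCNB1 had 0.73, CCNE1 -1.05, CALR 0.67, INSIG1 -0.98 and EGR1 -1.51 between the times, and each of these was called. The list counts between the times were not made with the correction, and the part of GC content in them was not tested. CALR was at 530, 541 and 526 CPM at 12 h, below both the 24 h and the DMSO samples. INSIG1, with 329, 335 and 311 CPM at 12 h, was 1.00 lower on the log2 scale at 24 h. EGR1 was at 345, 294 and 370 CPM at 12 h, above the DMSO samples, and at 24 h below them.

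**Figure D5:**
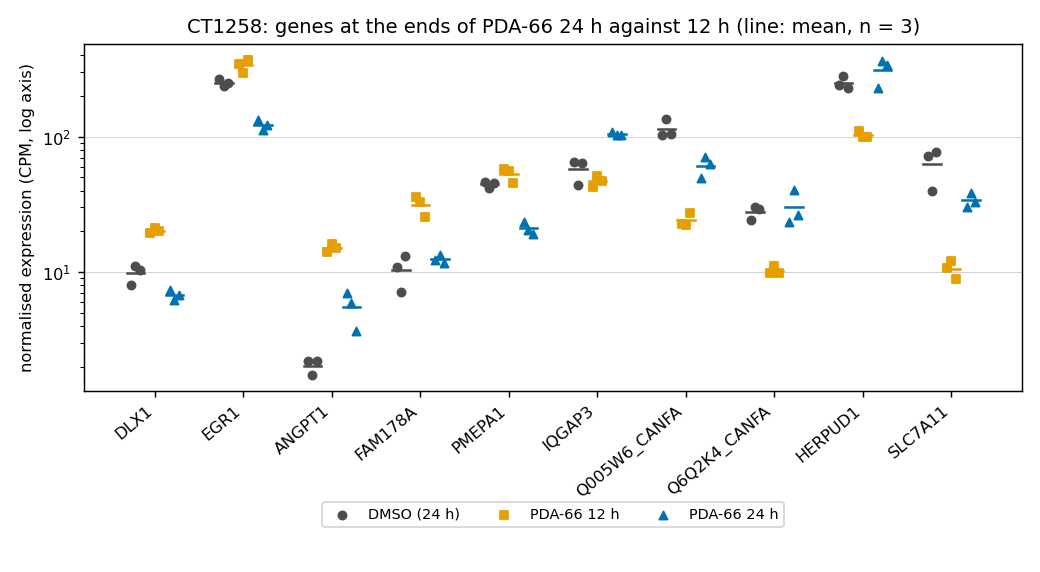
Normalised expression in CPM (log axis) of the 5 genes at either end of the comparison of 24 h with 12 h among called genes whose mean over these 6 samples reached 10 CPM, in each of the 9 CT1258 samples, with the mean of each group of 3 as a line. The 12 h and 24 h samples do not overlap, which was a condition of the choice, and HERPUD1 lies at 98.8 to 111 CPM at 12 h and at 230 to 362 CPM at 24 h.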

How the data were processed

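Per the labels and the study's methods, poly(A) RNA was sequenced as single reads, and the canine reads were mapped with BWA to the canine build CanFam3.1. Whole read counts per gene were deposited, made with the R package GAGE, without normalization. The use of strand in counting, and the handling of reads that match more than 1 gene, are not stated. The 9 CT1258 samples were fitted together, so the 12 h samples share in the estimate of the spread. Genes were filtered with filterByExpr (minimum count 10), scaled by TMM, and groups were compared by the quasi-likelihood test of edgeR 4.0.16 in R 4.3.3, with 0.001 as the threshold on the Benjamini-Hochberg adjusted p-value. DESeq2 1.42.0 and limma 3.58.1 served for alternatives, and Python 3.11.15 for summaries and figures. Total counts ranged from 7203534 to 20976950, and the biological coefficient of variation was 0.100. The controls' greater depth makes their counting error smaller.

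Genes named were the 10 DEGs at either end of the fold changes whose mean reached 10 CPM and whose groups did not overlap, up to 4 DEGs per list and direction with the largest change, the 5 at either end of 24 h against 12 h by the same limits, and a set of well-known genes. Genes outside this rule are named where a list holds few DEGs, or where KLK2, KIF11 (plotted only), TOP2A, PKMYT1, WEE1, NUMA1, SPC24 and the other NDC80 subunits were chosen after their values were seen. The comparison, the lists and the rule were chosen with earlier results of these data known, and the lists were written from general knowledge. Of 932 list symbols, 718 were found as written and 17 under a canine protein entry of that name. The GC and length correction fitted, in each sample, a spline with 4 degrees of freedom to the values of human transcripts and used it as an offset. The scripts were tested on simulated data with known changes. Also tried were scaling by library size or by DESeq2 size factors, other filters, the DESeq2 Wald test, edgeR's likelihood ratio and exact tests, limma voom, a fit of 2 groups, a replicate block, other thresholds, thinned controls and leaving out each sample. Canine sequences and positions were not used here. Some genes are not reported here.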

Additional observations from a re-analysis of the deposited data

Results flagged for a closer look

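The 10 genes below differed between the 24 h and 12 h samples of PDA-66 by the test of that difference (edgeR's quasi-likelihood test, called at an adjusted p-value under 0.001) and lay at either end of it among the genes whose mean over these 6 samples reached 10 CPM. Values are log2 fold changes of 24 h against 12 h, without the correction for GC content and length. The largest were SLC7A11, the cystine transporter, with 1.68 (adjusted p = 0.00044, edgeR) and HERPUD1, a factor of protein degradation at the endoplasmic reticulum, with 1.58 (adjusted p = 5.27e-05, edgeR). The entries Q6Q2K4_CANFA and Q005W6_CANFA had 1.55 and 1.34, and IQGAP3, a scaffold protein, 1.16. SLC7A11 was at 72, 39.7 and 77.2 CPM with DMSO, 10.8, 12.0 and 8.82 CPM at 12 h and 30.1, 38.7 and 33.1 CPM at 24 h, so that the 24 h samples lay between the other groups.

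The genes lower at 24 h were DLX1, a homeobox transcription factor, with -1.58, the immediate early gene EGR1 with -1.45, ANGPT1, a ligand of the TIE2 receptor, with -1.44, FAM178A with -1.34 and PMEPA1, a TGF beta-induced inhibitor of SMAD signaling, with -1.33. ANGPT1 was at 2.18, 1.74 and 2.19 CPM with DMSO, 14.1, 16.1 and 15.1 CPM at 12 h and 7.00, 5.90 and 3.66 CPM at 24 h. Over the 9 fits that left out 1 sample, DLX1, EGR1, PMEPA1 and HERPUD1 were called in 9, Q005W6_CANFA and Q6Q2K4_CANFA in 5, and ANGPT1, FAM178A, IQGAP3 and SLC7A11 in 3.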

How the results depend on the processing

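Values of the genes picked by the naming rule were followed under the alternatives. Of these values, 4906 kept direction and side of the threshold and 393 were no longer past it. Another 35 came past it, 9 moved and 7 turned in direction. Among the genes picked by this rule, the turned values of called genes all came with the correction for GC content and length. HSPB1 turned to 0.10 (0.091 also without DMSO replicate 2) and MDM2 from 0.41 to -0.068 (called in 1 of the 6 fits without 1 sample). SKIL turned to -0.13 (-0.13 also without DMSO replicate 2), XPOT to -0.0075, and ITGA3 to 0.0077 with the correction and without DMSO replicate 2. Of all 3176 DEGs with a corrected value, 129 had the opposite sign with the correction. Counts of DEGs at 24 h against DMSO, in all, higher and lower, were 5425, 2745 and 2680 with limma voom, 6142, 3022 and 3120 at an adjusted p-value under 0.05, and 976, 480 and 496 when a log2 fold change of at least 1 was also required. With 1 sample left out in turn, they ranged from 2116 to 4629, from 1082 to 2295 and from 1034 to 2334. The count of 211 for 24 h against 12 h ranged from 20 to 1352 with 1 sample left out. It was 345 without a filter, 667 with the DESeq2 Wald test, 730 with the likelihood ratio test, 2073 with limma voom, 1782 with the exact test, 1172 in a fit of only these 2 groups, 1907 at an adjusted p-value under 0.05, 44 with a log2 fold change of at least 1, 594 with the correction and 1766 with the correction and without DMSO replicate 2. The causes were not tested. The scaling alternatives moved the median log2 fold change by at most 0.0115 and turned no list median.

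With the replicate number as a block, 3062 DEGs were found at 24 h against DMSO and 132 genes differed between 24 h and 12 h. Samples with the same number did not deviate together, with correlations from -0.19 to 0.153, so the number was not taken as a pairing.

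Genes up to 23.04 CPM had the lowest share of DEGs (22%), and the part of the lower PDA-66 depth in this was not tested. A change under the smallest absolute log2 fold change called (0.34) was not called at this depth and spread.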
